A study of Mus musculus with 24 samples.

Results

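The 10 genes described here make the machinery that loads peptides on major histocompatibility complex (MHC) class I molecules, namely B2m, H2-K1, H2-D1, H2-Q4, Tap1, Tap2, Tapbp, Psmb8, Psmb9 and Psmb10. They were taken by symbol from the 55421 genes of the count and FPKM tables. Each symbol matched a single row, and all 10 passed the filter on low counts with 13847 genes in all. RNA was sequenced from hepatocytes that had been isolated by 2-step liver perfusion from 24 male C57BL/6J mice. The 8 ND+veh animals ate normal diet with vehicle (the eudragit coating without drug) from 4 months of age. The 7 HFD+veh animals ate the same diet and vehicle until 18 months of age and then, for 9 weeks, a high-fat diet with 60% of calories from fat and vehicle. The 9 HFD+eRapa animals received encapsulated rapamycin, an inhibitor of the kinase mTOR, at 42 ppm from 4 months of age, on normal diet until 18 months and on the high-fat diet for the last 9 weeks. No group ate normal diet with eRapa throughout, so the effect of the drug alone was not measured, and all libraries carry 1 batch label.

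MHC class I molecules show peptides from inside the cell to CD8 T cells. The proteasome cuts proteins into peptides, the TAP transporter carries them into the endoplasmic reticulum, and tapasin helps place them on a heavy chain that is held together by beta 2 microglobulin. Interferons, above all interferon gamma, raise these genes in most cells, also through the transactivator NLRC5, and they replace the 3 catalytic subunits of the constitutive proteasome by the immunoproteasome subunits. Nearly all nucleated cells make class I molecules. Hepatocytes show little class I protein on their surface at rest, and leukocytes show much more. That concerns protein, which was not measured here, and not the RNA levels given below.

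In the mouse genome (GRCm38, Gencode M21) 8 of the 10 genes lie on chromosome 17, in the MHC. H2-K1 spans 33996017 to 34000347 on the minus strand and Tapbp 33915899 to 33929292 on the plus strand. Psmb9 (34181987 to 34187764, minus strand), Tap1 (34187553 to 34197225), Psmb8 (34197721 to 34201454) and Tap2 (34203527 to 34216321, these 3 on the plus strand) are neighbours. H2-D1 (35262730 to 35267499) and H2-Q4 (35379617 to 35385290) follow on the plus strand. B2m lies on chromosome 2 (122147686 to 122153083, plus strand) and Psmb10 on chromosome 8 (105935735 to 105938444, minus strand). The RefSeq starts of Tap1 and Psmb9 are 226 bases apart and face away from each other.

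The sequences just before the RefSeq starts are printed because class I promoters carry a shared set of motifs on which NF-kappa B, interferon regulatory factors (IRF), CREB, NF-Y and NLRC5 act. They come from RefSeq promoter entries of GRCm38.p6, of which 9 of the 10 genes have at least 1 (none for Tap2). Capitals mark matches, on either strand, to GGGNNTTCC (kappa B), GAANNGAAA (IRF), TGACG (the core of a cyclic AMP response element), ATTGG (Y box, the reverse of CCAAT) and TTCNNNGAA (gamma-activated site, GAS). B2m is shown at chr2:122147529-122147648 (plus strand), H2-K1 at chr17:34000349-34000468 (minus strand), H2-D1 at chr17:35262913-35263032, H2-Q4 at chr17:35379434-35379553 and Psmb8 at chr17:34198055-34198174 (all plus strand). The stretch shared by Tap1 and Psmb9 is shown in the direction of Tap1, at chr17:34187331-34187555 (plus strand). RefSeq and Gencode starts differ for several genes. The stretches of H2-D1 and Psmb8 lie inside the Gencode spans of these genes given above. The shared stretch lies inside the span of Psmb9, and the RefSeq window of Tapbp (33919228 to 33919527) inside that of Tapbp.
B2m: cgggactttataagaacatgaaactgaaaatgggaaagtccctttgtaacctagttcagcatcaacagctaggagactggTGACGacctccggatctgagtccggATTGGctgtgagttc
H2-K1: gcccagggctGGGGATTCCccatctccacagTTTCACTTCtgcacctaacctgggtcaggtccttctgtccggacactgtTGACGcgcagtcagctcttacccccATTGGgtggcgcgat
H2-D1: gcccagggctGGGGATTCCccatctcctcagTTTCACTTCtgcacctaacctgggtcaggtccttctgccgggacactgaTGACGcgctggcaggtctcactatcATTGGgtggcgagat
H2-Q4: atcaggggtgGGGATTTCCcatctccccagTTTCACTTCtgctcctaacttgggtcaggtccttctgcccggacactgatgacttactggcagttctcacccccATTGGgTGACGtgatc
Tap1 and Psmb9: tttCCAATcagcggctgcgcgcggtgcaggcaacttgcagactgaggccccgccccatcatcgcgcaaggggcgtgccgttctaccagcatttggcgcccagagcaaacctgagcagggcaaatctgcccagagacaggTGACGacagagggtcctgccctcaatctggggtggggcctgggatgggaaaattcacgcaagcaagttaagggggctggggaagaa
Psmb8: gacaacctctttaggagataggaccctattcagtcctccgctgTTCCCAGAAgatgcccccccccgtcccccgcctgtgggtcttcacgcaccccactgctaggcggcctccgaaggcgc

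H2-K1, H2-D1 and B2m held TGACG followed by ATTGG with the starts of the matches 25 bases apart. That arrangement was found in 31 of 32851 RefSeq promoters of this length (0.0944%), while TGACG alone was found in 20.8% and ATTGG alone in 37.4%. H2-Q4 held ATTGG at position -79 and TGACG at -73 from its start, not in that order or spacing. H2-K1, H2-D1 and H2-Q4 each held a kappa B match (5.82% of promoters) and, downstream of it, an IRF match (7.52%). Psmb8 held a GAS match at position -97 from its start (8.30% of promoters), and Irf1, an interferon-induced factor that itself acts on several of these genes, held one at -90. The entries of B2m, Tap1, Tapbp, Psmb9 and Psmb10 held no match to the IRF, GAS or kappa B letters as searched, which have a fixed gap. The B2m stretch printed above holds gaaactgaaa and, after it, ggaaagtccc. These are the IRF letters, and the kappa B letters read on the other strand, each with a wider gap. Forms with a wider gap were not searched, so a missing match does not show that a promoter lacks these motifs. The constitutive subunit gene Psmb6 held an IRF match at -70. For H2-K1 the first of 2 RefSeq entries was used. These matches describe letters only, and binding was not measured.

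Sequence also limits the counting of the heavy chains. Of the distinct 50-base stretches in the annotated transcripts, 9.63% of those of H2-K1, 12.8% of those of H2-D1 and 21.8% of those of H2-Q4 also occur in other genes, most often in H2-Q10, H2-Q1 and H2-Q6 respectively. For the remaining 7 genes the share was at most 2.87%. Psmb9 and Tap1 overlap by 212 bases on opposite strands, and the strand setting of the counting was not given in the sources used here. Heavy chain values, and reads in that overlap, are therefore less certain than the others.

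Library totals ran from 17739252 to 25945134 counts. Levels are given as CPM (counts per M counts, where M stands for mega) on TMM-scaled library sizes, and called means an edgeR adjusted p under 0.05 over all 13847 genes. The hepatocyte markers Alb, Apoa1, Apob, Ttr, Fgb, Cps1 and Ahsg together reached 56031 to 170765 CPM, and the lowest ND+veh value was that of replicate 4 (63417 against 115799 to 165137 in the other 7). Leukocyte, macrophage, lymphocyte, neutrophil and dendritic cell markers together reached 52.3 to 1543 CPM in ND+veh, 197 to 6825 in HFD+veh and 24.5 to 1239 in HFD+eRapa. All 6 pan-leukocyte markers were called higher in HFD+veh than ND+veh and lower in HFD+eRapa than HFD+veh. Of 10 macrophage markers, 3 were called higher in the first of these comparisons and 8 lower in the second. Over all genes tested, 16.0% were called higher in the first and 21.1% lower in the second. Of 13 lymphocyte markers only 1 passed the filter, and their sum was at most 72.6 CPM. All 8 endothelial and all 7 stellate cell markers tested were called lower in HFD+eRapa than HFD+veh. In HFD+veh against ND+veh only 1 of the 8 and 1 of the 7 were called higher. Of the 7 stellate markers, 4 were also called lower in HFD+eRapa than ND+veh, as were 6.54% of all genes tested. Of 6 bile duct markers, Krt7, Krt19 and Cftr did not pass the filter. The 3 tested, Spp1, Epcam and Sox9, were called higher in HFD+veh than ND+veh (log2 fold changes 5.31, 2.37 and 1.15), and 1 of them lower in HFD+eRapa than HFD+veh. The bile duct list summed to 4.92 to 20.4 CPM in ND+veh, 13.0 to 363 in HFD+veh and 11.8 to 59.1 in HFD+eRapa. Whether these transcripts, Spp1 among them, came from bile duct cells or from other cells was not tested. In such bulk samples, fewer cells of a type and less RNA per cell cannot be told apart.

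Per length of transcript, the class I light chain B2m and the classical heavy chain H2-K1 stood far above the rest. The median FPKM in ND+veh was 2253 for B2m, 1128 for H2-K1 and 298 for H2-D1. Tapbp (29.2), Psmb8 (28.6), Psmb10 (20.3) and H2-Q4 (16.8) came next, and Tap1 (9.35), Tap2 (8.93) and Psmb9 (7.74) were lowest, with ranges that overlapped between neighbours in this order from Tapbp down. The median FPKM of Psmb5, Psmb6 and Psmb7, the constitutive subunits, were 115, 135 and 115. Sums of all FPKM values differed between libraries (lowest 756477 in ND+veh, with group medians of 796336, 845509 and 866160 in ND+veh, HFD+veh and HFD+eRapa), so comparisons between animals rest on the counts.

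**Figure D1:**
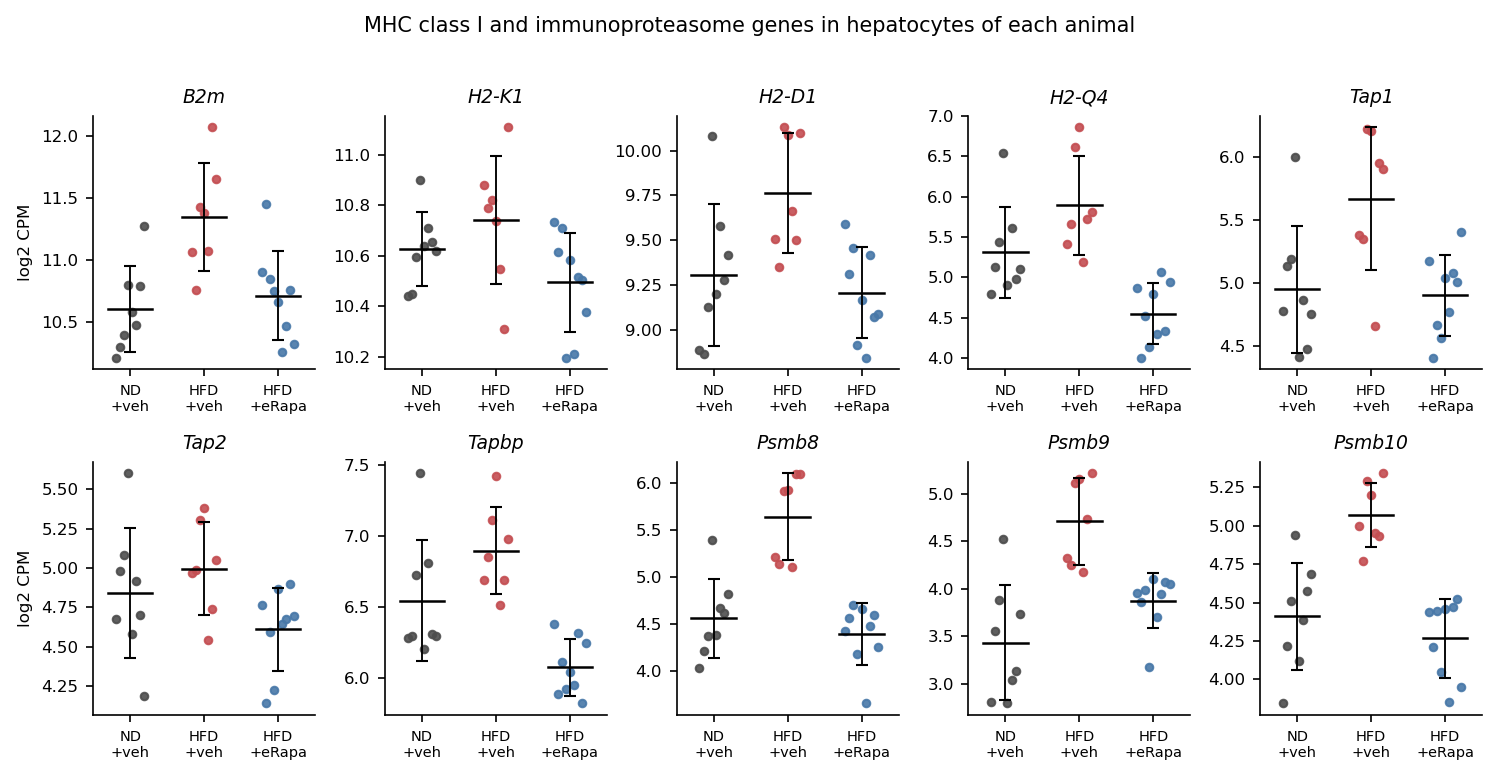
Level of each of the 10 genes in each animal, as log2 CPM on the vertical axis of every panel (axes differ between panels), by group (ND+veh n = 8, HFD+veh n = 7, HFD+eRapa n = 9). Points are animals, horizontal lines are means and bars are SD; Psmb8, Psmb9, Psmb10, Tapbp and H2-Q4 show no overlap between HFD+veh and HFD+eRapa, and ND+veh replicate 4 lies above the other ND+veh animals in 9 panels.

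The diet comparison asked how these genes differed after 9 weeks of high-fat feeding in aged animals. Of the 10 genes, 5 were called higher in HFD+veh than ND+veh and 0 lower, where 16.0% of all genes tested were called higher and 9.86% lower. They were the 3 immunoproteasome subunits, B2m and Tap1. All 10 estimates were above 0, with a median log2 fold change of 0.61 against 0.05 over all genes tested. In none of the 10 were the animals of both groups fully separated (1.21% of all genes were separated with HFD+veh higher).

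Among the catalytic subunits of the immunoproteasome, Psmb9 and Psmb8 had the largest estimates of the 10 genes. Psmb8, which takes the place of Psmb5 and carries the chymotrypsin-like activity, ran from 16.2 to 41.8 CPM in ND+veh (median 22.5) and from 34.4 to 68.7 CPM in HFD+veh (median 60.3). Every HFD+veh animal lay above 7 of the 8 ND+veh animals, the exception being ND+veh replicate 4 at 41.8 CPM. The rise was 2.13-fold, a fitted log2 change of 1.09 (SE 0.20, edgeR adjusted p = 0.000750). Psmb9, which takes the place of Psmb6, ran from 6.83 to 22.95 CPM in ND+veh (median 10.1) and from 18.0 to 37.1 CPM in HFD+veh (median 26.5). It rose 2.33-fold (log2 fold change 1.22, SE 0.23, edgeR adjusted p = 0.00100), and again only ND+veh replicate 4 reached into the HFD+veh range. Psmb10, which takes the place of Psmb7, ran from 14.2 to 30.5 CPM (median 21.8) and from 27.2 to 40.5 CPM (median 31.9). Its rise was 1.56-fold (log2 fold change 0.64, SE 0.14, edgeR adjusted p = 0.00331).

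Of the peptide supply and loading genes, Tap1 was called and Tap2 and Tapbp were not. Tap1, which encodes a chain of the transporter, ran from 21.1 to 63.9 CPM in ND+veh (median 28.2) and from 25.1 to 74.7 CPM in HFD+veh (median 60.1). It rose 1.65-fold (log2 fold change 0.72, SE 0.23, edgeR adjusted p = 0.0253), and the groups overlapped widely, since HFD+veh replicate 5 was at 25.1 CPM. The call was lost when any 1 of ND+veh replicates 1 and 5 or HFD+veh replicates 3, 4 and 6 was left out (edgeR adjusted p from 0.0514 to 0.0736). The other chain, Tap2, was at a median of 28.0 CPM in ND+veh and 31.6 CPM in HFD+veh (log2 fold change 0.13, SE 0.17, edgeR adjusted p = 0.594). Tapbp, which encodes tapasin, had a fitted log2 change of 0.32 (SE 0.17, edgeR adjusted p = 0.161).

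Of the class I molecule itself, edgeR called the light chain B2m and none of the 3 heavy chains, and DESeq2 called H2-D1 as well (log2 fold change 0.45, DESeq2 adjusted p = 0.0324). B2m ran from 1187 to 2477 CPM in ND+veh (median 1479) and from 1735 to 4302 CPM in HFD+veh (median 2659). It rose 1.70-fold (log2 fold change 0.76, SE 0.20, edgeR adjusted p = 0.00872), a call that was lost with a leukocyte marker score as covariate (0.37, edgeR adjusted p = 0.159). H2-K1 showed the smallest estimates of the heavy chains, with 1389 to 1912 CPM in ND+veh (median 1585), 1269 to 2208 CPM in HFD+veh (median 1772) and a fitted log2 change of 0.13 (SE 0.11, edgeR adjusted p = 0.424). H2-D1, the second classical heavy chain of this strain, had a fitted log2 change of 0.44 (SE 0.17, edgeR adjusted p = 0.0596). H2-Q4, a gene of the Q region, had a fitted log2 change of 0.59 (SE 0.27, edgeR adjusted p = 0.101) and was at 92.9 CPM in ND+veh replicate 4 against 27.7 to 48.9 CPM in the other 7. Without ND+veh replicate 4 alone, 8 of the 10 genes were called higher, with H2-D1, H2-Q4 and Tapbp added. H2-D1 was also called when HFD+veh replicate 1 or 2 was left out (edgeR adjusted p = 0.0438 and 0.0324).

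The second comparison asked what eRapa did under the high-fat diet, and it shares the 7 HFD+veh animals with the first. Of the 10 genes, 8 were called lower in HFD+eRapa than HFD+veh and 0 higher, where 21.1% of all genes tested were called lower and 10.9% higher. The exceptions were H2-K1 and Tap2, and DESeq2 called these as well (DESeq2 adjusted p = 0.0480 and 0.0485), giving 10 of 10. H2-K1 was also called by limma on log2(FPKM + 1) (limma adjusted p = 0.0318), and Tap2 by edgeR on only the groups compared (edgeR adjusted p = 0.0345). All 10 estimates were below 0, with a median log2 fold change of -0.82 against -0.04 over all genes tested. In 5 of the 10 (H2-Q4, Tapbp, Psmb8, Psmb9 and Psmb10) every HFD+eRapa animal lay below every HFD+veh animal, a pattern found in 1.29% of all genes.

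Psmb8 ran from 12.4 to 26.0 CPM in HFD+eRapa (median 22.2), all below the lowest HFD+veh value of 34.4. It fell 2.45-fold (log2 fold change -1.29, SE 0.19, edgeR adjusted p = 8.62e-05). Psmb9 ran from 8.94 to 17.1 CPM (median 15.4), close under the lowest HFD+veh value of 18.0, and fell 1.84-fold (log2 fold change -0.88, SE 0.22, edgeR adjusted p = 0.00525). Psmb10 ran from 14.4 to 22.9 CPM (median 21.6), below the lowest HFD+veh value of 27.2. Its fall was 1.74-fold (log2 fold change -0.80, SE 0.14, edgeR adjusted p = 0.000304).

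H2-Q4 showed the largest fall of the 10. Its levels were 16.0 to 33.3 CPM in HFD+eRapa (median 22.9) against 36.5 to 116 CPM in HFD+veh (median 52.6), a 2.68-fold fall (log2 fold change -1.42, SE 0.26, edgeR adjusted p = 0.000545). The more abundant heavy chains moved less, H2-D1 with a fitted log2 change of -0.57 (SE 0.17, edgeR adjusted p = 0.0119) and H2-K1 with -0.25 (SE 0.11, edgeR adjusted p = 0.0832). B2m ran from 1227 to 2794 CPM in HFD+eRapa (median 1719) and fell 1.57-fold (log2 fold change -0.65, SE 0.19, edgeR adjusted p = 0.0117). Its groups overlapped, because HFD+eRapa replicate 2 was at 2794 CPM and HFD+veh replicate 2 at 1735 CPM, and the call was lost without HFD+veh replicate 6 (log2 fold change -0.47, edgeR adjusted p = 0.0660).

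In the loading complex, Tapbp ran from 56.4 to 83.2 CPM in HFD+eRapa (median 65.9) against 91.3 to 172 CPM in HFD+veh (median 116). It fell 1.79-fold (log2 fold change -0.84, SE 0.16, edgeR adjusted p = 0.000886), with no overlap. Tap1 ran from 21.1 to 42.3 CPM (median 32.0) and fell 1.78-fold (log2 fold change -0.83, SE 0.22, edgeR adjusted p = 0.00736). Tap2 had a fitted log2 change of -0.39 (SE 0.16, edgeR adjusted p = 0.0653), which was called without ND+veh replicate 4 or 8 or HFD+veh replicate 5 (edgeR adjusted p from 0.0339 to 0.0452).

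HFD+eRapa and ND+veh animals differ in both diet and drug. Of the 10 genes, 2 were called lower (6.54% of all genes tested) and 0 higher (6.93% of all genes tested). H2-Q4 was 1.78-fold lower (log2 fold change -0.83, SE 0.25, edgeR adjusted p = 0.0272) and Tapbp 1.43-fold lower (log2 fold change -0.52, SE 0.16, edgeR adjusted p = 0.0281). Both calls were lost without ND+veh replicate 4 (edgeR adjusted p = 0.0710 and 0.0625), and likewise without ND+veh replicate 6 or HFD+eRapa replicate 8. The 8 other log2 fold changes ran from -0.26 for Tap2 to 0.34 for Psmb9, with SE from 0.11 to 0.22, and those p-values do not show that the groups are equal. The median over the 10 was -0.14 against -0.03 over all genes tested.

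**Figure D2:**
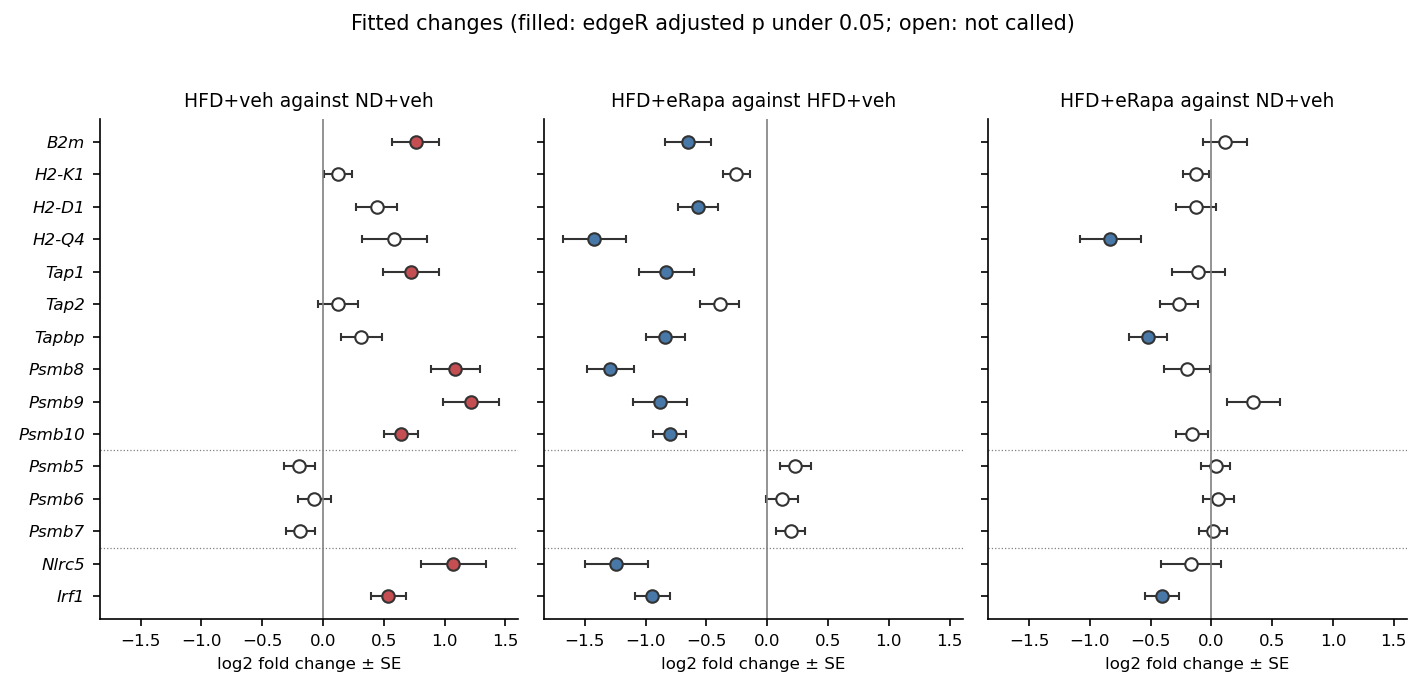
Fitted log2 fold change (horizontal axis, bars are SE) of the 10 genes, of the constitutive subunits Psmb5, Psmb6 and Psmb7 and of Nlrc5 and Irf1 in the 3 comparisons. Filled points are called higher (red) or lower (blue), open points are not called; the 3 constitutive subunits are open in every comparison, while Psmb8 moves from 1.09 with the diet to -1.29 with eRapa.

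A ratio within a library does not depend on library scaling, so each immunoproteasome subunit was also set against the constitutive subunit that it replaces. None of Psmb5, Psmb6 and Psmb7 was called in any comparison, with log2 fold changes from -0.20 to -0.07 for HFD+veh against ND+veh and from 0.12 to 0.23 for HFD+eRapa against HFD+veh. The ratio of Psmb8 to Psmb5 counts was 2.46-fold higher in HFD+veh than ND+veh (log2 difference 1.30, two-sided exact permutation p = 0.000466, adjusted over 9 tests 0.00105). It was 2.79-fold lower in HFD+eRapa than HFD+veh (log2 difference -1.48, exact permutation p = 8.74e-05, the smallest p that these groups can give, adjusted 0.000393). In FPKM the Psmb8 to Psmb5 ratio ran from 0.191 to 0.498 in ND+veh, from 0.404 to 1.15 in HFD+veh and from 0.119 to 0.303 in HFD+eRapa.

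The other 2 ratios followed in the same directions. Psmb9 to Psmb6 was 2.54-fold higher in HFD+veh than ND+veh (two-sided exact permutation p = 0.00311, adjusted 0.00466) and 1.95-fold lower in HFD+eRapa than HFD+veh (two-sided exact permutation p = 0.000350, adjusted 0.00105). Psmb10 to Psmb7 was 1.79-fold higher (exact permutation p = 0.00155, adjusted 0.00280) and then 1.99-fold lower (exact permutation p = 8.74e-05, adjusted 0.000393). Psmb8 to Psmb5 and Psmb10 to Psmb7 did not overlap between HFD+eRapa and HFD+veh. Between HFD+eRapa and ND+veh the log2 differences were -0.19, 0.38 and -0.15, with adjusted exact permutation p of 0.407, 0.246 and 0.407. The Psmb9 to Psmb6 ratio is the one of these 3 that turned on a single animal: without ND+veh replicate 4 it was higher in HFD+eRapa than ND+veh by a log2 difference of 0.60 (adjusted exact permutation p = 0.0145).

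**Figure D3:**
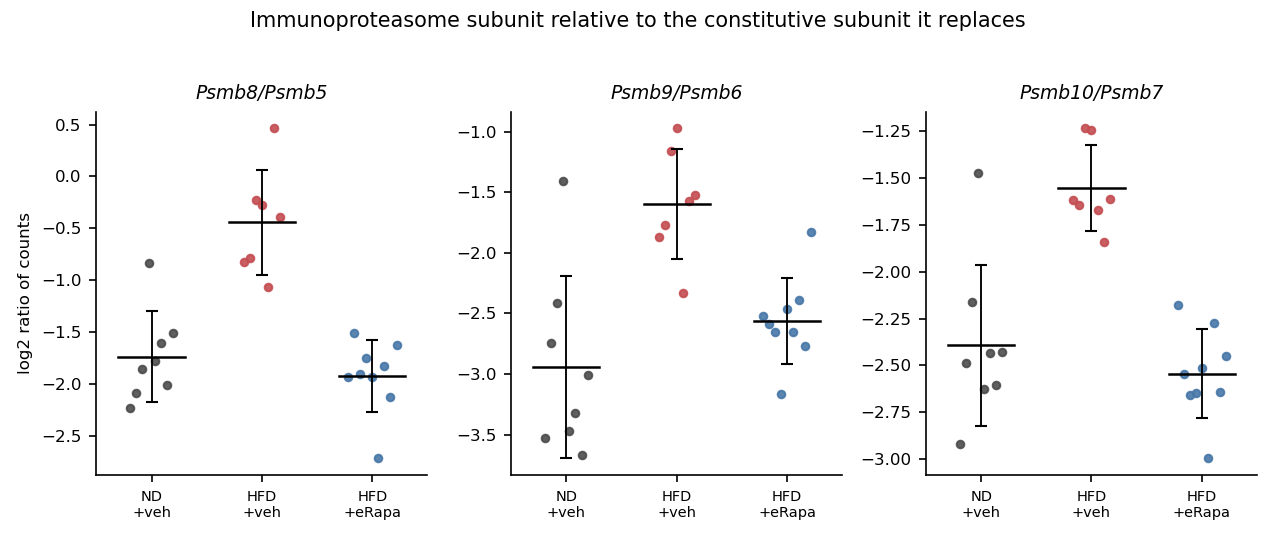
Log2 ratio of counts of each immunoproteasome subunit to the constitutive subunit it replaces, by animal and group (ND+veh n = 8, HFD+veh n = 7, HFD+eRapa n = 9; points are animals, lines means, bars SD; vertical axes differ between panels). HFD+veh means of -0.44, -1.60 and -1.55 lie above the ND+veh means of -1.74, -2.94 and -2.39 and the HFD+eRapa means of -1.93, -2.56 and -2.55.

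The 10 genes moved together in some animals and apart in others. ND+veh replicate 4 was the highest of its group in 9 of the 10, all but B2m, and was above the HFD+veh median in 6. Among HFD+veh animals, replicates 3 and 4 were above the highest ND+veh animal in 7 genes each and replicate 7 in 6, but replicates 1 and 5 in only 1 each and replicate 2 in 0. HFD+veh replicate 5 was the lowest of its group in 6 genes. HFD+veh replicate 6 was the highest of its group in B2m and Psmb8 and the lowest in H2-K1. HFD+eRapa replicate 2 was the highest of its group in B2m and the lowest in H2-Q4, Tap1 and Tap2. In HFD+eRapa, 8 of the 9 animals were below the HFD+veh median in all 10, and replicate 2 was below it in 9. Over the 24 libraries the 45 pairs among the 10 genes had Pearson r from 0.02 to 0.97 on log2 CPM (median 0.73), and from -0.29 to 0.93 within groups (median 0.57), given as a description of libraries that share depth and cell make-up.

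The leukocyte markers moved with these genes in some animals and apart from them in others. HFD+veh replicates 3, 4 and 6 had high sums of 3827, 3029 and 6825 CPM and high Psmb8 at 60.3, 60.8 and 68.7 CPM. Replicate 6 had both the highest marker sum of all libraries and the highest B2m (4302 CPM). HFD+veh replicates 1 and 2 had marker sums of 197 and 204 CPM, inside the ND+veh range, and Psmb8 at 37.1 and 35.1 CPM, above 7 of the 8 ND+veh animals. Their B2m (2137 and 1735 CPM) and Tap1 (41.6 and 40.6 CPM) lay inside the ND+veh range. Of the 10 genes, 1 in replicate 1 and 0 in replicate 2 lay above the highest ND+veh animal. HFD+veh replicate 5 had a marker sum of 3263 CPM, the third highest of its group, and the lowest Psmb8 of its group (34.4 CPM). HFD+veh replicate 7 had a marker sum of 1063 CPM, below the 1543 CPM of ND+veh replicate 8, while its Psmb8 was at 68.2 CPM against 28.2 CPM there. HFD+eRapa replicate 2 had a marker sum of 1239 CPM and Psmb8 at 23.6 CPM.

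With a score of the leukocyte markers as a covariate, 3 of the 10 genes were called higher in HFD+veh than ND+veh, namely Psmb8 (log2 fold change 0.77, edgeR adjusted p = 0.00834), Psmb9 (1.06, edgeR adjusted p = 0.00839) and Psmb10 (0.50, edgeR adjusted p = 0.0328). In that fit 4.30% of all genes tested were called higher. B2m, as given above, and Tap1 (0.61, edgeR adjusted p = 0.166) were not called. In HFD+eRapa against HFD+veh, 4 genes were called lower under that covariate (H2-Q4, Tapbp, Psmb8 and Psmb10), as were 3.57% of all genes tested. With a score of endothelial and stellate cell markers as the covariate, 5 of the 10 were called higher with the diet (13.1% of all genes tested). Tapbp, Psmb8 and Psmb10 were called lower with eRapa under it (3.26% of all genes tested). The part of other cells in these differences was not otherwise tested.

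**Figure D4:**
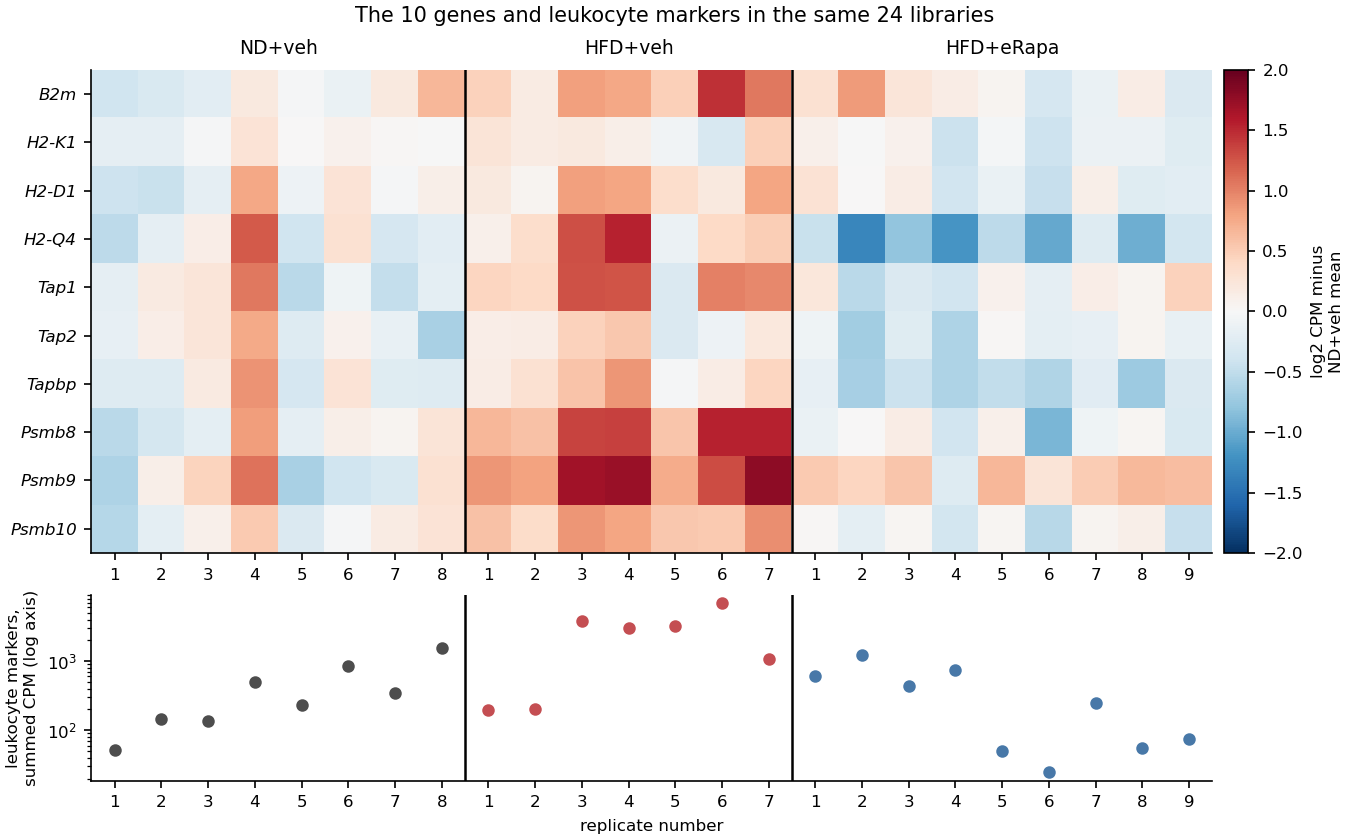
Upper panel, log2 CPM of each of the 10 genes (rows) in each of the 24 libraries (columns, by replicate number) minus the ND+veh mean of that gene; red is higher and blue lower. Lower panel, summed CPM of the leukocyte, macrophage, lymphocyte, neutrophil and dendritic cell markers in the same libraries on a log axis; HFD+veh replicates 1 and 2, at 197 and 204 CPM, lie within the ND+veh range of 52.3 to 1543 CPM.

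The rest of the pathway was described by 6 lists with 56 further genes, of which 54 were tested. In HFD+veh against ND+veh 17 of the 54 rose and 4 fell, where the shares over all genes were 16.0% and 9.86%. With the leukocyte score as a covariate these 21 calls became 7, in a fit that called 595 of 13847 genes higher and 672 lower. The eRapa comparison with HFD+veh gave 3 called higher and 23 called lower, where the shares over all genes were 10.9% and 21.1%. These 26 calls became 9 with the leukocyte score, where 395 of all 13847 genes were called higher and 495 lower. They became 8 with the endothelial and stellate score, where 357 genes were called higher and 451 lower.

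Of 17 other class I and class I-like heavy chains, 15 were tested, and 5 were higher and 1 lower with the diet. Over all genes tested, 16.0% were called higher and 9.86% lower. H2-T24 (log2 fold change 1.98, edgeR adjusted p = 0.0132), H2-M3, which binds formylated peptides (1.61, edgeR adjusted p = 0.00995), and H2-T10 (0.91, edgeR adjusted p = 0.0195) rose most. H2-Q2 fell (-1.99, edgeR adjusted p = 0.0121) from 0.648 to 1.05 CPM in ND+veh to 0.0522 to 0.435 CPM in HFD+veh, levels of few reads. With eRapa 9 were lower and 1 higher than HFD+veh, where 21.1% of all genes tested were called lower and 10.9% higher. H2-T24 (-2.92, edgeR adjusted p = 0.000688), H2-M3 (-2.44, edgeR adjusted p = 0.000334) and H2-T10 (-1.61, edgeR adjusted p = 0.000224) fell most. H2-T24, H2-T10 and Mr1 (-1.60, edgeR adjusted p = 0.000102) did not overlap between these groups. These were 3 of the 15 tested, where 1.29% of all genes were separated with HFD+eRapa lower. Fcgrt, the IgG transporter that also pairs with beta 2 microglobulin, was the gene called higher (0.40, edgeR adjusted p = 0.0164).

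Against ND+veh, 5 heavy chains were lower in HFD+eRapa and 1 was higher, where 6.54% of all genes tested were called lower and 6.93% higher. H2-Q2 (-1.90, edgeR adjusted p = 0.0114), H2-Q1 (-1.12, edgeR adjusted p = 0.0272) and H2-Q6 (-1.10, edgeR adjusted p = 0.00157) had the largest falls. In 3 of the 15 tested, H2-Q2 and H2-Q6 among them, these groups did not overlap, a pattern found in 1.23% of all genes. H2-Q6 ran from 29.6 to 75.3 CPM in ND+veh and from 14.3 to 29.5 CPM in HFD+eRapa. Cd1d1, which presents lipids, was higher (0.42, edgeR adjusted p = 0.00708). H2-Q6 also shares transcript sequence with H2-Q4, so the counts of these genes may not be separate.

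The factors that act on class I promoters included 10 genes, of which 4 rose and 2 fell with the diet (16.0% and 9.86% of all genes tested). Nlrc5, the class I transactivator, ran from 6.55 to 29.2 CPM in ND+veh (median 11.1) and from 14.2 to 34.8 CPM in HFD+veh (median 30.9), a rise of 1.07 on the log2 scale (SE 0.27, edgeR adjusted p = 0.00687). It ran from 7.74 to 18.2 CPM in HFD+eRapa (median 10.7) and was lower than HFD+veh (log2 fold change -1.24, SE 0.26, edgeR adjusted p = 0.00145). Irf1 ran from 13.9 to 28.6 CPM in ND+veh (median 21.0) and from 21.0 to 39.4 CPM in HFD+veh (median 31.0), with a fitted log2 change of 0.54 (SE 0.14, edgeR adjusted p = 0.0114). In HFD+eRapa it ran from 10.97 to 20.7 CPM (median 15.5), below every HFD+veh animal (log2 fold change -0.94, SE 0.14, edgeR adjusted p = 8.26e-05) and also lower than ND+veh (-0.41, SE 0.14, edgeR adjusted p = 0.0488).

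Members of the complexes that bind the X and Y boxes went in both directions. Nfya, an NF-Y subunit, rose with the diet (0.73, edgeR adjusted p = 0.0199). Irf2, an interferon regulatory factor and not a member of these complexes, also rose (0.55, edgeR adjusted p = 0.0111). Rfxank, of the RFX complex, fell (-0.73, edgeR adjusted p = 0.00769), and Nfyb, another NF-Y subunit, fell without overlap (-0.61, edgeR adjusted p = 1.30e-05). With eRapa 6 of the 10 were lower and 1, Nfyb, was higher than HFD+veh (0.24, edgeR adjusted p = 0.0123). Over all genes tested, 21.1% were called lower and 10.9% higher. Rfx5 was among the 6, with a fitted log2 change of -0.73 (edgeR adjusted p = 0.00435), and it was also lower than ND+veh (-0.63, edgeR adjusted p = 0.0159).

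Of 10 interferon receptor and signalling genes, 4 rose with the diet (16.0% of all genes tested) and 6 were lower with eRapa than HFD+veh (21.1% of all genes tested). Between HFD+eRapa and ND+veh edgeR called 0, where 6.93% of all genes tested were called higher and 6.54% lower. Irf9 and Socs1 had unadjusted edgeR p of 0.0233 and 0.0193 there. Ifngr1, a chain of the interferon gamma receptor, rose (1.09, edgeR adjusted p = 0.0268) and was lower with eRapa (-1.53, edgeR adjusted p = 0.00247). Irf9, the DNA-binding part of the complex that type I interferons activate, rose (0.83, edgeR adjusted p = 0.000628), as did the kinase gene Jak1 (0.58, edgeR adjusted p = 0.00548). Socs1, a feedback inhibitor, was lower with eRapa (-1.85, edgeR adjusted p = 0.0213) at no more than 1.54 CPM in any library. Jak2 was lower with eRapa as well (-0.59, edgeR adjusted p = 0.00815).

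Of 10 genes for peptide loading and trimming, 2 rose and 1 fell with the diet, and 1 was lower with eRapa than HFD+veh. The shares over all genes were close to or above these counts (16.0% higher and 9.86% lower with the diet, 21.1% lower with eRapa). Lnpep, an aminopeptidase of endosomes, rose (1.19, edgeR adjusted p = 0.0132) and was lower with eRapa (-1.28, edgeR adjusted p = 0.00481). Erap1, which trims peptides in the endoplasmic reticulum, rose (0.45, edgeR adjusted p = 0.0244), and Uggt1, a glycoprotein folding sensor, fell (-0.44, edgeR adjusted p = 0.0147). Against ND+veh, Uggt1 (-0.50, edgeR adjusted p = 0.00498) and Pdia3, a partner of tapasin (-0.40, edgeR adjusted p = 0.0472), were lower in HFD+eRapa.

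Among 6 proteasome partners, Psme2, a subunit of the interferon-induced proteasome activator, rose (0.45, edgeR adjusted p = 0.0216), as did Pomp, which helps new proteasomes assemble (0.46, edgeR adjusted p = 0.0147). With eRapa Psme2 was lower (-0.44, edgeR adjusted p = 0.0144) and Psme3, which encodes a nuclear activator, was higher (0.29, edgeR adjusted p = 0.0133) than HFD+veh. Pomp was higher in HFD+eRapa than ND+veh (0.39, edgeR adjusted p = 0.0345).

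**Figure D5:**
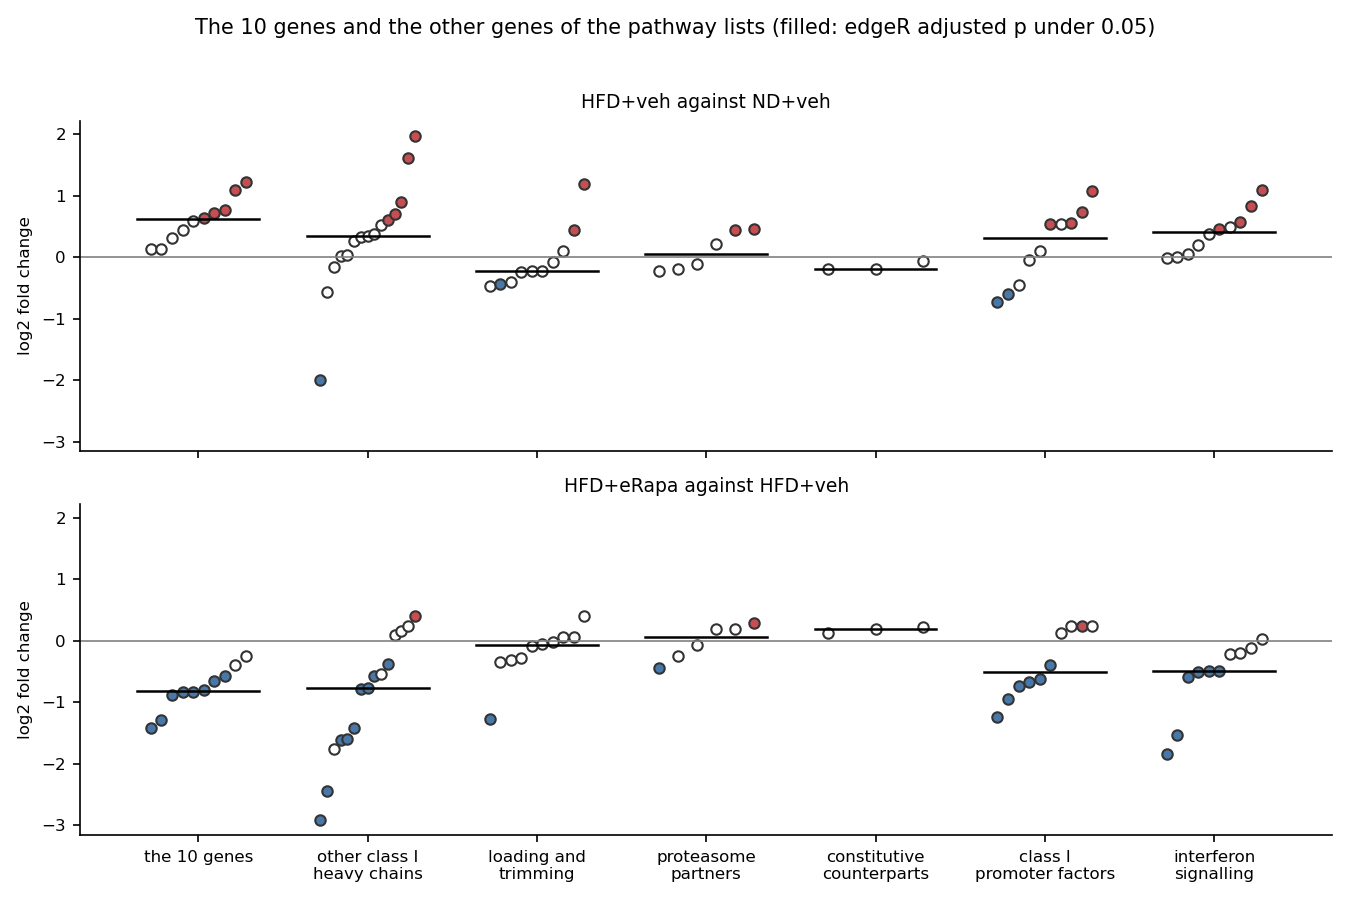
Log2 fold change (vertical axis) of every tested gene of the 10 and of the 6 pathway lists, for HFD+veh against ND+veh (upper panel) and HFD+eRapa against HFD+veh (lower panel). Filled points are called, red higher and blue lower, and lines are list medians; the median of the 10 genes goes from 0.61 to -0.82, and none of the 3 constitutive subunits is filled in either panel.

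The genes whose levels most resembled the mean of the 10 over all 24 libraries, after scaling each gene, were Trafd1 (Pearson r = 0.94), Isg15 (0.94), Ly6e (0.94), Ly6c1 (0.93), Irf7 (0.93), Parp12 (0.92), Tgtp1 (0.92) and the class I gene H2-T22 (0.92). These values describe likeness over libraries that share group, depth and cell make-up. Within groups, after removal of group means, the same 8 genes had r from 0.85 to 0.90.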

How the data were processed

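Per the labels and the study's methods, the authors aligned polyA RNA reads to mm10 (Gencode vM23) with STAR in 2-pass mode, with SAMtools 1.1.0 also named, and deposited gene counts from HTSeq 0.11.2 and FPKM values from Cufflinks. The strand setting is not given in the sources used here. The deposited columns matched 24 of 24 samples by name, and columns holding the authors' own comparisons were not used. Libraries held 17739252 to 25945134 counts, and no pair of libraries of the same group agreed within counting noise (lowest chi-square per degree of freedom 11.3). Pairs from different groups were not checked.

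Counts were tested in R 4.3.3 with edgeR 4.0.16 (filterByExpr, TMM, robust glmQLFit, glmQLFTest), all 3 groups in 1 fit without covariates, and Benjamini-Hochberg adjusted p under 0.05 over 13847 genes was called. The SE of a log2 fold change is its size over the square root of F. log2 CPM used a prior count of 2. Ratios added 0.5 to each count and were compared by two-sided exact permutation tests adjusted over 9 tests. P-values cover the spread between these animals only. Alternatives were DESeq2 1.42.0 (the tool of the study's methods), limma 3.58.1 (voom, and on log2(FPKM + 1) and log2(FPKM + 0.1) with mean FPKM of at least 0.5), RLE scaling, no filter, only the groups compared, a replicate block, marker scores as covariates, and fits without single libraries or without ND+veh replicate 4 and HFD+veh replicate 6. The fitting was tested on simulated counts.

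The 10 genes, the pathway lists and the marker lists were chosen with earlier results of these data known. All 10, their constitutive counterparts, Nlrc5 and Irf1 are named, with up to 3 called genes of largest rise and up to 3 of largest fall per list and comparison, and the 8 genes of most similar pattern. Positions come from Gencode M21 (55154 of 55421 gene IDs found) and promoters from RefSeq.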

Additional observations from a re-analysis of the deposited data

Results flagged for a closer look

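In 3 of 39 groups of log2 CPM values or ratios, 1 library lay far from the rest by Dixon's 95% critical value. Chance gives about 1 in 20, or 1.95 of 39. H2-Q4 was at 6.54 log2 CPM in ND+veh replicate 4 while the rest of that group ran from 4.80 to 5.61, and this library raised the ND+veh level in the comparisons of H2-Q4. Psmb8 was at 3.65 log2 CPM in HFD+eRapa replicate 6 against 4.18 to 4.70 in the other HFD+eRapa animals. Psmb9 was at 3.18 log2 CPM in HFD+eRapa replicate 4 against 3.70 to 4.10 in the others, and that animal was below the lowest HFD+veh animal in all 10 genes. The cause of these values was not tested.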

How the results depend on the processing

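No called log2 fold change or ratio of the 10 genes changed sign under any alternative that was run. Of the 10 genes, 5 were called in HFD+veh against ND+veh, 3 with the leukocyte score as a covariate, 8 without ND+veh replicate 4 and HFD+veh replicate 6, 6 with DESeq2, and 4 to 8 with 1 library left out (8 without ND+veh replicate 4). In HFD+eRapa against HFD+veh 8 were called, 10 with DESeq2, 9 with limma on FPKM or only the groups compared, 4 with the leukocyte score, 3 with the endothelial and stellate score, and 7 to 9 with 1 library left out. In HFD+eRapa against ND+veh 2 were called, 1 without the filter, 0 with the endothelial and stellate score, 0 with limma on log2(FPKM + 1) or log2(FPKM + 0.1), 1 without both named libraries (Psmb9, higher), and 0 to 2 with 1 library left out (0 without ND+veh replicate 4 or 6 or HFD+eRapa replicate 8, 1 without ND+veh replicate 3 or HFD+eRapa replicate 2). Of the pathway genes 21, 26 and 12 were called in the 3 comparisons. The first count was 7 with the leukocyte score, 10 with limma on log2(FPKM + 1), 8 on log2(FPKM + 0.1) and 15 to 25 with 1 library left out. The second was 9 with the leukocyte score, 8 with the endothelial and stellate score and 22 to 27 with 1 library left out, and the third 8 to 14. The Psmb9 to Psmb6 log2 difference of HFD+eRapa and ND+veh (0.38) was 0.58 by medians, 0.60 without both named libraries and 0.28 to 0.60 with 1 library left out. The cause of these changes was not tested.

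The mean correlation of deviations between same-numbered animals was 0.316, -0.245 and -0.203 in the 3 comparisons. Same-numbered animals were the best match in 2 of 7, 0 of 7 and 0 of 8 pairs. No mean was taken over differently numbered animals, so this check can neither show nor exclude a pairing by number. The main fit treated the animals as unpaired. With a replicate block 5, 6 and 1 of the 10 genes were called, without B2m (edgeR adjusted p = 0.0577) and H2-D1 (0.0588) in the second comparison and without H2-Q4 (0.0504) in the third. The precision of genes at few counts, such as Socs1 and H2-Q2, is limited by depth.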
